A study of Mus musculus with 2 samples.

Results

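The HOX genes of *Sox9*-GFP-high chondrospheres are described here across the 4 mammalian HOX clusters. Members are all listed genes whose symbol is Hoxa, Hoxb, Hoxc or Hoxd followed by a paralogue number, which gives 37 of the 23628 genes listed. The annotation holds 39 such genes, and *Hoxb1* and *Hoxb13* were not analysed here. Of the 37 members, 11 belong to the Hoxa cluster, 8 to Hoxb, 9 to Hoxc and 9 to Hoxd. The study grew colonies of cartilage cells from single chondrocytes, and RNA-sequencing of the chondrospheres gave 2 libraries of 1 condition, named replicate 1 and replicate 2. The cells came from femoral heads of pups at postnatal day 7 that were homozygous for *Sox9* IRES-EGFP, an allele in which the *Sox9* locus also drives GFP. GFP-high cells free of endothelial, erythroid and leukocyte surface markers were sorted. They were grown in 1% methylcellulose at 5% oxygen in Maintenance Media with serum, FGF2, BMP4, IGF1, LIF and TGF-β1. The study harvested pups as separate biological replicates, but the labels do not tie a library to a pup, so the spread between the libraries may be technical. With 1 condition there is no contrast to test, and values are given per library or as mean ± SD (n = 2).

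HOX genes encode homeodomain transcription factors that give cells of the embryo a position along the body axis and along the limb. Genes of each cluster lie in the order of their paralogue numbers, and low numbers act toward the head and high numbers toward the tail. In the limb, groups 9 and 10 are usually assigned to the upper segment, which holds the femur or humerus. Group 11 is assigned to the middle segment, and groups 12 and 13 to the hand or foot. Whether these roles are the same in forelimb and hindlimb cannot be seen from these data. Connective and skeletal cells can keep a HOX pattern of their site of origin after birth. HOX proteins bind DNA together with TALE homeodomain cofactors of the MEIS and PBX families, and Polycomb and Trithorax group proteins hold the clusters silent or active.

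The values are counts-per-million (CPM), with the offset of 0.0001 CPM that was added to every gene subtracted. The step between low values implies that 43300000 and 42100000 reads were assigned to genes, so that 3 reads correspond to 0.0693 and 0.0712 CPM. Intervals and limits drawn from such reads cover counting error only. All 9 chondrocyte markers examined had at least 1 CPM, with *Col2a1*, *Acan* and *Comp* as the highest of them. *Sox9*, the gene behind the reporter, had 252 and 279 CPM. The summed level of 5 endothelial markers was 0.231 and 0.166 CPM with 4 of the 5 listed at 0, and 5 erythroid and 5 skeletal muscle markers summed to between 0.0924 and 0.864 CPM. The 5 fibroblast markers summed to 618 and 474 CPM, of which *Col3a1* made up 616 and 471 CPM, with *Pdgfra* at 2.03 and 2.71 CPM and *Pi16* listed at 0. Of the tendon markers, *Scx* had 35.3 and 30.9 CPM, *Mkx* had 15.2 and 16.4 CPM, and *Tnmd* and *Kera* were listed at 0. The 6 osteoblast markers differed between the libraries, with sums of 6.05 and 54.2 CPM, of which *Dmp1* made up 0.116 and 40.4 CPM. In bulk RNA, fewer cells of a type and less RNA per cell cannot be told apart.

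Most HOX members were detected. A mean of at least 1 CPM was reached by 28 of the 37 (75.7%), against 53.5% of all genes listed, and 32 (86.5%) had at least 3 reads in both libraries, against 68.0% of all genes. The median member had 3.32 CPM and the median gene 1.63 CPM. Added up, the members came to 241 and 278 CPM in replicates 1 and 2, and 9 of them had at least 10 CPM. *Hoxd1*, *Hoxd11* and *Hoxd12* were listed at 0 in both libraries, which at this depth allows levels of up to 0.0693 and 0.0712 CPM. The plot of levels by cluster and paralogue number shows this arrangement, with a peak near number 10 in the Hoxa and Hoxc clusters and near numbers 8 and 9 in Hoxd.

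**Figure D1:**
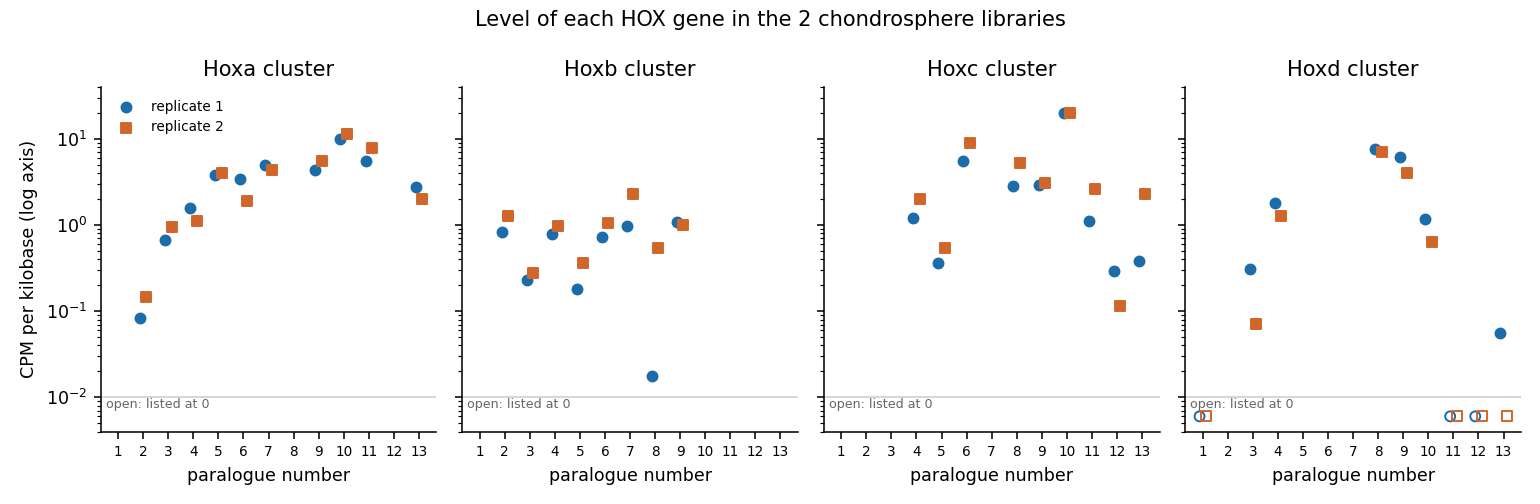
Level of each HOX gene as CPM per kilobase of exonic sequence on a log axis, by paralogue number, in a panel for each cluster, for the members reported singly. Filled circles are replicate 1 and filled squares replicate 2, and open symbols under the grey line are genes listed at 0. *Hoxc10* is the highest point at 19.8 and 20.0 CPM per kilobase, the Hoxb genes reach at most 2.30, and *Hoxd11* and *Hoxd12* lie at 0.

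To compare genes with each other, CPM were divided by the kilobases of exonic sequence. On this scale *Hoxc10* was the highest member, at 19.8 and 20.0 CPM per kilobase, and *Hoxa10* followed at 10.02 and 11.36 CPM per kilobase. The ranges of these genes did not overlap, and *Hoxa10* was also apart from the gene below it. The next 8 in order were *Hoxc6* (mean of 7.34 CPM per kilobase), *Hoxd8* (7.33), *Hoxa11* (6.75), *Hoxd9* (5.12), *Hoxa9* (4.998), *Hoxa7* (4.68), *Hoxc8* (4.10) and *Hoxa5* (3.90). Neighbours among these 8 overlapped in their ranges, and over the whole order only 5 of 36 neighbouring pairs had ranges that stood apart.

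The summed level per kilobase was divided among the clusters and paralogue groups within each library, which makes the shares independent of how a library is scaled. The Hoxa cluster held 39.6% ± 1.42 (SD, n = 2) and the Hoxc cluster 39.2% ± 4.12, which overlap. The Hoxd cluster held 15.1% ± 4.23 and the Hoxb cluster 6.17% ± 1.53. Along the paralogue numbers, groups 1 to 3 held 4.02% ± 0.547, groups 4 to 8 held 38.4% ± 0.944 and groups 9 to 13 held 57.6% ± 1.49. Group 10 alone held 32.5% in replicate 1 and 29.8% in replicate 2, more than any other group in both libraries. Group 9 came next at 15.3% and 12.8%, then group 8 at 11.04% and 12.02% and group 6 at 10.2% and 11.2%. Group 9 sums 4 genes and groups 10, 8 and 6 sum 3 each, so the order of these sums is not an order per gene.

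**Figure D2:**
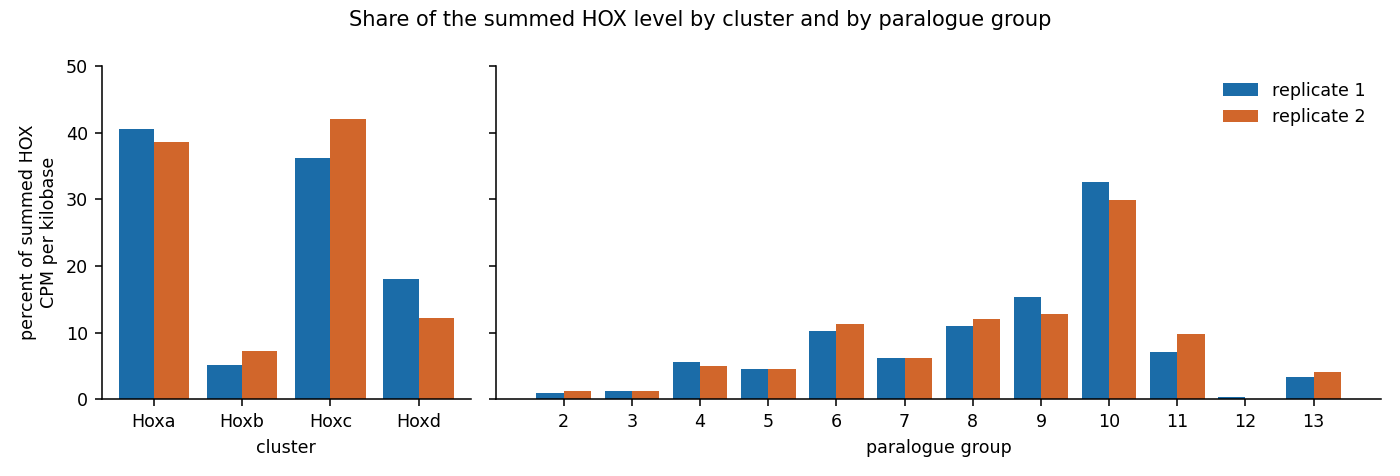
Percent of the summed HOX level (CPM per kilobase) held by each cluster on the left and by paralogue groups 2 to 13 on the right, with a bar for each library. Group 10 stands at 32.5% and 29.8%, and group 12 at 0.305% and 0.107%.

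Groups 10 and 9 held the highest summed levels per kilobase of the paralogue groups, though some of their genes were low. These sums cover 3 and 4 genes and were not divided by the number of genes. *Hoxc10*, a gene of the posterior trunk and hindlimb, had 37.9 and 38.2 CPM in replicates 1 and 2. *Hoxa10*, which acts in the femur and in the uterus, had 32.8 and 37.2 CPM. *Hoxd10*, the third gene of the group, had 2.15 and 1.16 CPM. Per kilobase, *Hoxc10* was 1.98-fold and 1.76-fold above *Hoxa10* and 16.8-fold and 31.3-fold above *Hoxd10*, so that the group was carried by its Hoxa and Hoxc genes. The group 9 genes were closer together. *Hoxa9* had 24.5 and 31.2 CPM, *Hoxd9* 13.3 and 8.54 CPM, *Hoxc9* 7.07 and 7.59 CPM and *Hoxb9* 2.80 and 2.56 CPM. Per kilobase of exonic sequence *Hoxd9* was above *Hoxa9* in replicate 1 (1.42-fold) and below it in replicate 2 (0.714-fold). This order also rests on the length used, since *Hoxa9* has 5580 exonic bases but a longest coding transcript of 3226. In CPM not divided by length, *Hoxa9* was above *Hoxd9* in both libraries, so their order is not settled. Per kilobase *Hoxa9* was above *Hoxb9* in both (4.05-fold and 5.63-fold). The log2 ratio of group 10 to group 9 was 1.15 ± 0.10 per kilobase (SD, n = 2), a ratio of summed levels.

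The promoter of *Hoxa10* is shown because this gene is the highest member with a window in the RefSeq promoter table of GRCm38.p6. The 250 bases before its start lie at chr6:52234940-52235189 on the minus strand, within the longer annotated span of the gene. A further RefSeq start of *Hoxa10* has its window at chr6:52240855-52241104. Letters are lower case, and capitals mark matches on either strand to 4 motifs. The MEIS motif was searched as TGACAG and the joint PBX-HOX motif as TGATTNAT. The CDX motif was searched as TTTATG and the TATA box as TATAAA. No match in the windows printed overlaps another, and a match to the opposite strand is printed as its complement read on the strand shown.
Hoxa10: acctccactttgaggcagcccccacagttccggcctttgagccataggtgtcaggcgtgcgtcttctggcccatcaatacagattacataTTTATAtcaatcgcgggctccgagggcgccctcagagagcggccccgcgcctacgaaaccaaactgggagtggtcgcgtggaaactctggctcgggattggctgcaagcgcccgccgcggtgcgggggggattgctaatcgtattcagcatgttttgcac
The window holds 1 TATA match, beginning 160 bases before the start, 20 CpG dinucleotides and 59.2% G and C. The letters TATAAA, on either strand and at any place, are found in 12.4% of the 32817 promoter windows of the table. The MEIS motif is found in 15.9%, the CDX motif in 10.8% and the PBX-HOX motif in 2.83%. A match in a window is a description of letters only. Windows were found for 21 of the 37 members (56.8%), which is too few for a summary over the members, so none is given.

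Group 11, which patterns the middle limb segment, was lower than group 10. *Hoxa11* had 12.9 and 18.0 CPM and *Hoxc11* 2.29 and 5.31 CPM, while *Hoxd11* was at 0. The log2 ratio of group 10 to group 11 was 1.90 ± 0.42 per kilobase. The step was small in the Hoxa cluster, where *Hoxa10* was 1.78-fold and 1.44-fold above *Hoxa11* per kilobase. It was large in the Hoxc cluster, where *Hoxc10* was 17.5-fold and 7.61-fold above *Hoxc11*.

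Group 13, which patterns the hand and foot, was lower again, with a log2 ratio of group 10 to group 13 of 3.07 ± 0.27 per kilobase. *Hoxa13*, needed for digits and the genital tract, had 6.89 and 5.01 CPM. *Hoxc13*, known for its role in hair and nails, had 0.947 and 5.69 CPM, from 41 and 240 reads. *Hoxd13*, the main digit gene of the Hoxd cluster, rested on 6 reads in replicate 1 and was at 0 in replicate 2. *Hoxa13* was thus above *Hoxc13* per kilobase in replicate 1 (7.24-fold) and below it in replicate 2 (0.875-fold). In group 12, *Hoxc12* had 0.3004 and 0.119 CPM from 13 and 5 reads, and *Hoxd12* was at 0.

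**Figure D3:**
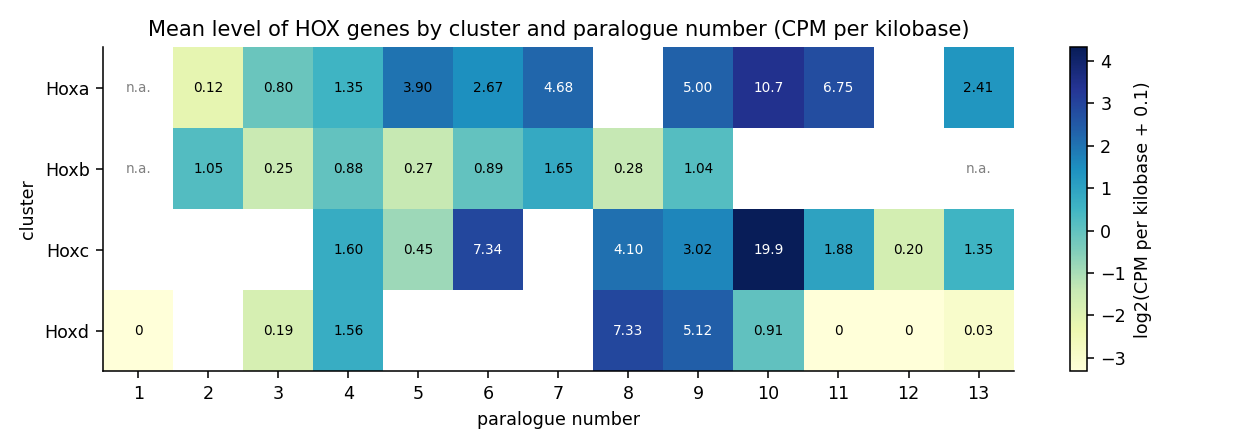
Mean level of the 2 libraries for each HOX gene as CPM per kilobase, by cluster (rows) and paralogue number (columns), with the colour on a log2 scale after adding 0.1. Blank fields have no gene in the mouse genome, and n.a. marks genes not analysed or not reported here. The darkest field is *Hoxc10* at 19.9, and the Hoxd row runs from 7.33 at number 8 to 0 at numbers 11 and 12.

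The Hoxd cluster went from well-expressed genes to genes at 0 within a few neighbours. *Hoxd8* had 21.0 and 19.2 CPM, *Hoxd9* 13.3 and 8.54 CPM and *Hoxd10* 2.15 and 1.16 CPM, and the next genes, *Hoxd11* and *Hoxd12*, were at 0. Per kilobase, *Hoxd9* was 5.27-fold and 6.25-fold above its neighbour *Hoxd10*. The genes lie within 96.8 kilobases on chromosome 2, from 74668310 to 74765142 (GRCm38), with *Hoxd13* at the left end and *Hoxd1* at the right. *Evx2*, the homeobox gene beyond *Hoxd13*, was also at 0 in both libraries, and *Lnpk*, the gene after it, had 8.62 and 15.5 CPM. *Mtx2* and *Hnrnpa3*, beyond *Hoxd1*, had 6.28 and 14.8 CPM and 33.8 and 59.0 CPM.

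The windows before the starts of *Hoxd9*, *Hoxd10* and *Hoxd11* are shown because the level drops from the first of these genes to 0 at the last. They are from RefSeq on the plus strand, at chr2:74697513-74697726 for *Hoxd9*, chr2:74691641-74691890 for *Hoxd10* and chr2:74682073-74682322 for *Hoxd11*, with capitals for the motifs named above. The last bases before the RefSeq start of *Hoxd9* are left out because GENCODE M21 puts them in its first exon. The window of *Hoxd10* ends short of the gene's start in GENCODE M21, at 74691924, and so does not adjoin it.
Hoxd9: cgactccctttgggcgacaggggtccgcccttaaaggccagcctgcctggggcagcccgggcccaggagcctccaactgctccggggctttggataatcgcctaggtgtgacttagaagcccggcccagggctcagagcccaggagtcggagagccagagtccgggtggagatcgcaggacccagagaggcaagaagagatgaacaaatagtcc
Hoxd10: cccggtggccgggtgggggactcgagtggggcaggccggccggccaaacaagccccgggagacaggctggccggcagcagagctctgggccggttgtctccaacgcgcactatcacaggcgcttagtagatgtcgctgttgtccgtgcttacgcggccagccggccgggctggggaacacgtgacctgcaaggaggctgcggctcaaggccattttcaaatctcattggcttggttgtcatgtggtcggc
Hoxd11: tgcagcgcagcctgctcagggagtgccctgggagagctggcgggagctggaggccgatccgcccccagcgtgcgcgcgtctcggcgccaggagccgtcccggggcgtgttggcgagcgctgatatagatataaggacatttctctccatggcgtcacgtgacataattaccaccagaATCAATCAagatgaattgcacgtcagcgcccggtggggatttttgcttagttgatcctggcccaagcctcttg
The 250-base windows hold 65.2%, 65.6% and 60.4% G and C in the same order and 13, 20 and 20 CpG dinucleotides, where the median window of the table has 6. The window of *Hoxd11* has 1 PBX-HOX match, which begins 73 bases before the start, and those of *Hoxd9* and *Hoxd10* have no match to any of the 4 motifs. A further RefSeq start of *Hoxd11* has its window at chr2:74679308-74679557, with 44.8% G and C, 2 CpG dinucleotides and a CDX match that begins 87 bases before the start.

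Genes of groups 4 to 8, which act along the trunk, were present in all clusters. Of 15 members, 13 had a mean of at least 1 CPM. Among them *Hoxc6*, a gene of the thoracic region, at 5.57 and 9.10 CPM per kilobase, and *Hoxd8*, at 7.65 and 7.01 CPM per kilobase, had the highest means. *Hoxc6* had 13.4 and 21.9 CPM, and its neighbour *Hoxc5* had 1.12 and 1.67 CPM, which per kilobase was 15.4-fold and 16.9-fold lower. *Hoxc8*, which shapes the thoracic vertebrae, had 8.13 and 15.1 CPM. In the Hoxa cluster, *Hoxa7* had 14.3 and 12.6 CPM and *Hoxa5*, known for its roles in the lung and the sternum, 7.14 and 7.50 CPM. *Hoxa6* was lower at 3.004 and 1.67 CPM. The group 4 genes had means of 0.880 CPM per kilobase for *Hoxb4*, 1.35 for *Hoxa4*, 1.56 for *Hoxd4* and 1.60 for *Hoxc4*.

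The Hoxb genes of these groups had means of 0.270 to 1.65 CPM per kilobase. *Hoxb7* had 1.52 and 3.56 CPM, *Hoxb6* 1.43 and 2.06 CPM, *Hoxb4* 2.01 and 2.51 CPM and *Hoxb5* 0.502 and 1.005 CPM. The listed members of the cluster, from *Hoxb9* to *Hoxb2*, span 82.6 kilobases on chromosome 11, from 96271457 to 96354012, without *Hoxb1* and *Hoxb13*. Of the coding genes beyond *Hoxb2* other than HOX genes, *Skap1* had 0.347 and 0.593 CPM and *Snx11* 20.9 and 27.0 CPM. *Hoxb8*, known for its role in immature myeloid cells, had the widest ratio between the libraries of all members with reads in both. It had 0.0462 CPM from 2 reads in replicate 1 and 1.45 CPM from 61 reads in replicate 2, a ratio of 31.4 with a 95% counting interval (exact binomial) of 8.32 to 265. Its neighbours in the cluster, *Hoxb7* and *Hoxb9*, did not show a gap of that size, with *Hoxb9* at 2.80 and 2.56 CPM. The 5 leukocyte markers summed to 3.26 and 3.50 CPM, with *Cd68* at 2.56 and 2.396 CPM, *Lyz2* at 0.624 and 0.949 CPM, *Csf1r* at 0.0462 and 0.103 CPM and *Itgam* at 0. Their part in the *Hoxb8* gap was not tested. With 1 library on each side, this gap has no replicate check.

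The window of *Hoxb8* is printed as that of the member with the widest gap between the libraries. It lies at chr11:96281655-96281904 on the plus strand, ends at the base before the gene's start in GENCODE M21, and is from RefSeq with the same capitals.
Hoxb8: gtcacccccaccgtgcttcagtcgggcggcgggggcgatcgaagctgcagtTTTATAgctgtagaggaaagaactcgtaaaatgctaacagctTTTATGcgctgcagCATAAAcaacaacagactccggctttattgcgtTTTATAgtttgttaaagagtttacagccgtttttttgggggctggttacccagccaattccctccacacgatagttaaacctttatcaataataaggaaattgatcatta
It holds 44.4% G and C and 12 CpG dinucleotides. CDX matches begin 157 and 143 bases before the start, and TATA matches 199 and 110 bases before it.

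Groups 1 to 3, which pattern the hindbrain and neck, were the lowest region. *Hoxa3*, needed for the thymus and parathyroid, had 4.03 and 5.65 CPM. *Hoxb2* had 2.92 and 4.41 CPM and *Hoxb3* 0.968 and 1.197 CPM. *Hoxa2*, which sets the identity of the second pharyngeal arch, had 0.150 and 0.261 CPM, or 0.116 ± 0.044 CPM per kilobase, below its neighbour *Hoxa3* at 0.805 ± 0.190 CPM per kilobase. *Hoxd3* had 1.30 and 0.296 CPM and *Hoxd1* was at 0. The Hoxa cluster spans 105 kilobases on the minus strand of chromosome 6, and all 11 of its members had at least 3 reads in both libraries. *Skap2* and *Snx10*, beyond the low-numbered end, had 61.5 and 64.8 CPM and 10.8 and 5.61 CPM. Beyond *Hoxa13*, the homeobox gene *Evx1* had 0.555 and 0 CPM, and *Hibadh* had 23.2 and 25.3 CPM.

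The members were next compared between the libraries as the log2 ratio of replicate 2 to replicate 1, after adding 0.1 CPM, a scale that understates the change of low genes. All genes with at least 1 CPM had a median ratio of 0.30, and ratios were centred on it. The 10 highest genes held 43.4% and 34.7% of the total. Of 28 members with at least 1 CPM, 14 were higher and 14 lower in replicate 2, with a median of -0.01. Over 2-fold higher was 1 member, *Hoxc13* at 2.16, against 7.43% of all genes. Over 2-fold lower were 2 members, *Hoxa6* at -1.12 and *Hoxd10* at -1.14, against 6.06% of all genes. The calls of *Hoxa6* and *Hoxd10* depend on the scaling. Scaled by the trimmed mean of log ratios, without centring, they were at -1.08 and -1.10. With totals that exclude the 10 highest genes, also without centring, they were at -1.02 and -1.04. In CPM as deposited their log2 ratios were -0.81 and -0.83, and the members past 2-fold were *Hoxc13* at 2.47, *Hoxc11* at 1.18 and *Hoxb7* at 1.17, all higher in replicate 2. The counting error of these log2 ratios ran from 0.05 to 0.30, which does not include the spread between libraries.

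By cluster, the 4 Hoxd members with at least 1 CPM were all lower in replicate 2, between -0.43 for *Hoxd8* and -1.14 for *Hoxd10*, and they were lower under all 4 scalings tried. Of the 8 Hoxc members, 6 were higher, with *Hoxc9* at -0.20 and *Hoxc10* at -0.29 as the exceptions, and in CPM as deposited all 8 were higher. In the Hoxa cluster 4 of 10 were higher and in the Hoxb cluster 4 of 6, where CPM as deposited gave 6 of 10 and 5 of 6. In CPM as deposited the median log2 ratio of all genes was itself 0.30, and the share of all genes that were higher was not computed. The trimmed mean of log ratios, and totals without the 10 highest genes, gave 6 of 8 in Hoxc, 4 of 10 in Hoxa and 5 of 6 in Hoxb. The osteoblast markers also differed between these libraries, and their part in the HOX differences was not tested. Across the 33 members above 0 in both libraries, levels on the log2 scale had a Pearson r of 0.84 and a Spearman rho of 0.89, against 0.86 and 0.96 over 17738 genes. These are correlations across genes of 1 pair of libraries, and genes are not independent replicates.

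**Figure D4:**
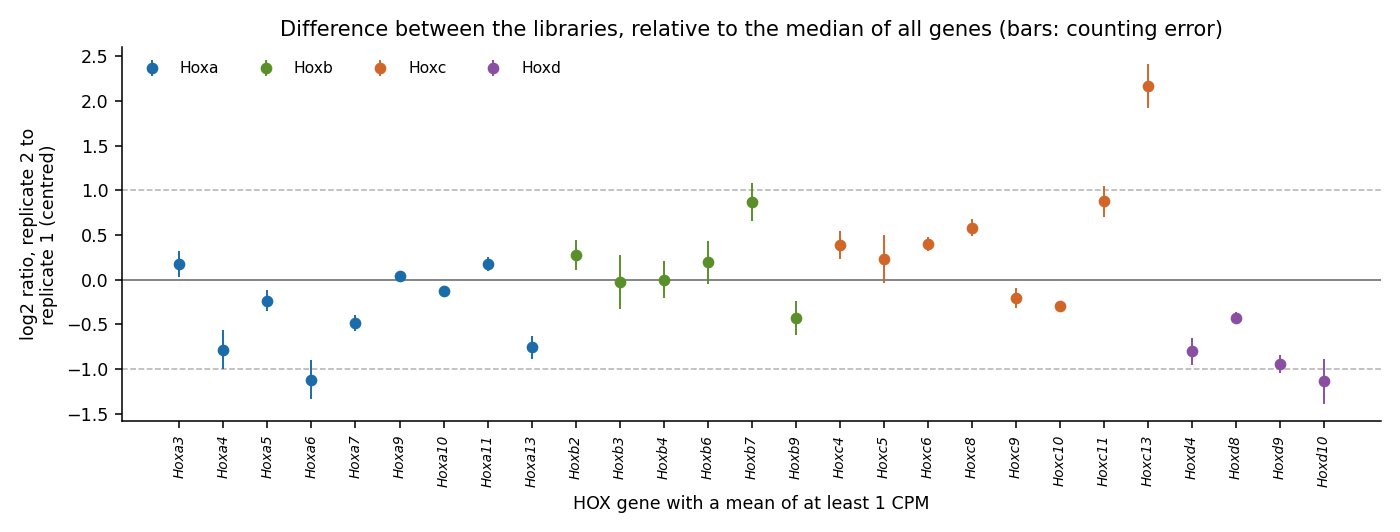
Log2 ratio of replicate 2 to replicate 1 for HOX genes whose mean reached 1 CPM and which are reported singly, centred on the median of all genes, in the order of the clusters and coloured by cluster. Bars are counting errors, dashed lines mark 2-fold, and the 4 Hoxd genes lie between -0.43 and -1.14 while *Hoxc13* lies at 2.16.

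Some members share exonic bases with other genes, and the authors' counting could split their reads. Implied reads were whole numbers in both libraries, within 0.05 reads, for 22 of the 37 members. These include the 3 members listed at 0 in both, which are whole by definition. The share of all genes by this rule was not computed. In GENCODE M21, 9 members share exonic bases with a gene on the same strand, 10 with a gene on the other strand and 21 with none. *Hoxd3* shares 53.1% of its exonic bases and *Hoxd4* 39.1% with *Gm28230*, an annotated coding gene at 5.32 and 3.63 CPM, so the values of both are uncertain. *Hoxa2* shares 15.0% with *Gm28308*, at 0.857 and 0.103 CPM. *Hoxc10* shares 8.70% with *Hoxc5*. *Gm28309*, which overlaps *Hoxd10* and *Hoxd11*, was at 0. On the other strand *Hoxb3os*, at 0.0584 and 1.01 CPM, covers 52.9% of *Hoxb3*, and *Hoxa11os*, at 4.29 and 6.04 CPM, covers 35.0% of *Hoxa11*. Libraries were stranded but the use of strand in counting is not given in the sources used here, so reads of such pairs may not be separated.

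The clusters also hold other annotated genes, most of them noncoding. Of 41 such genes within the spans of the members, 19 are listed and 6 had a mean of at least 1 CPM. Among these 6 is *Gm28230*, which is annotated as coding. *Hotairm1*, an antisense RNA of the Hoxa cluster, had 2.41 and 3.06 CPM. *Hoxd3os1* had 1.13 and 2.72 CPM, *Hoxaas2* 0.590 and 1.41 CPM, *Hoxaas3* 0.221 and 0.879 CPM and *Gm27867* 1.37 and 1.33 CPM. *Hotair*, the RNA between *Hoxc11* and *Hoxc12* known for its link to Polycomb proteins, had 0.116 and 0.237 CPM, and *Haglr* of the Hoxd cluster 0.0694 and 0.142 CPM. The other 7 listed genes, all in the Hoxa span, had 0 to 0.830 CPM in a library. The Hoxc cluster spans 116 kilobases on chromosome 15, from 102921103 to 103036852. The genes beside it were *Calcoco1* at 43.6 and 42.0 CPM and *Atp5g2* at 1.29 and 3.67 CPM beyond *Hoxc13*, and *Smug1* at 9.54 and 8.28 CPM and *Cbx5* at 65.8 and 92.9 CPM beyond *Hoxc4*.

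Genes that act with HOX proteins or on HOX clusters were also measured. Of 11 TALE homeodomain genes, 10 had at least 1 CPM and *Pbx4* was at 0. Those with the highest CPM, which are not scaled by length, were *Tgif1*, a corepressor of SMAD signalling, at 24.4 and 43.2 CPM, and the HOX cofactors *Pbx2* at 20.0 and 23.3 CPM and *Meis2* at 20.9 and 19.1 CPM. Of 20 Polycomb genes, which keep HOX clusters silent, 19 had at least 1 CPM, led by the PRC1 members *Cbx6* at 73.2 and 74.4, *Phc2* at 35.0 and 91.2 and *Bmi1* at 44.1 and 50.0 CPM. All 12 Trithorax group and related genes had at least 1 CPM, led by *Ash1l* at 50.5 and 73.0, *Kmt2a* at 36.2 and 51.1 and *Kdm6b*, a demethylase that removes the Polycomb mark, at 38.2 and 46.3 CPM. The share of all genes with at least 1 CPM was 53.5%.

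Of 13 factors that set limb position and type, 6 had a mean of at least 1 CPM, against 53.5% of all genes listed. *Shox2*, which acts in the upper limb segment, had 32.3 and 53.4 CPM, *Gli3*, a mediator of hedgehog signalling, 26.9 and 52.0 CPM, and *Pitx1*, a hindlimb factor, 12.6 and 11.9 CPM. *Tbx5*, a forelimb factor, and *En1*, a factor of the ventral limb ectoderm, were at 0 in both libraries. *Tbx4*, a hindlimb factor named after its values were seen, had 0.439 and 0.119 CPM, or 0.0820 CPM per kilobase on average. Retinoic acid, a signal that turns HOX genes on, was represented by 8 listed genes, of which 6 had at least 1 CPM, against the same 53.5%. *Rarg* had 112 and 141 CPM, *Rxra* 43.2 and 84.6 CPM and *Rara* 5.57 and 15.4 CPM, and *Crabp1* was at 0. *Rarb* and *Cyp26a1* were not analysed here. Of the axial regulators, *Gdf11* had 0.855 and 1.76 CPM, and *Cdx1*, *Cdx2* and *Cdx4* were not analysed here.

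**Figure D5:**
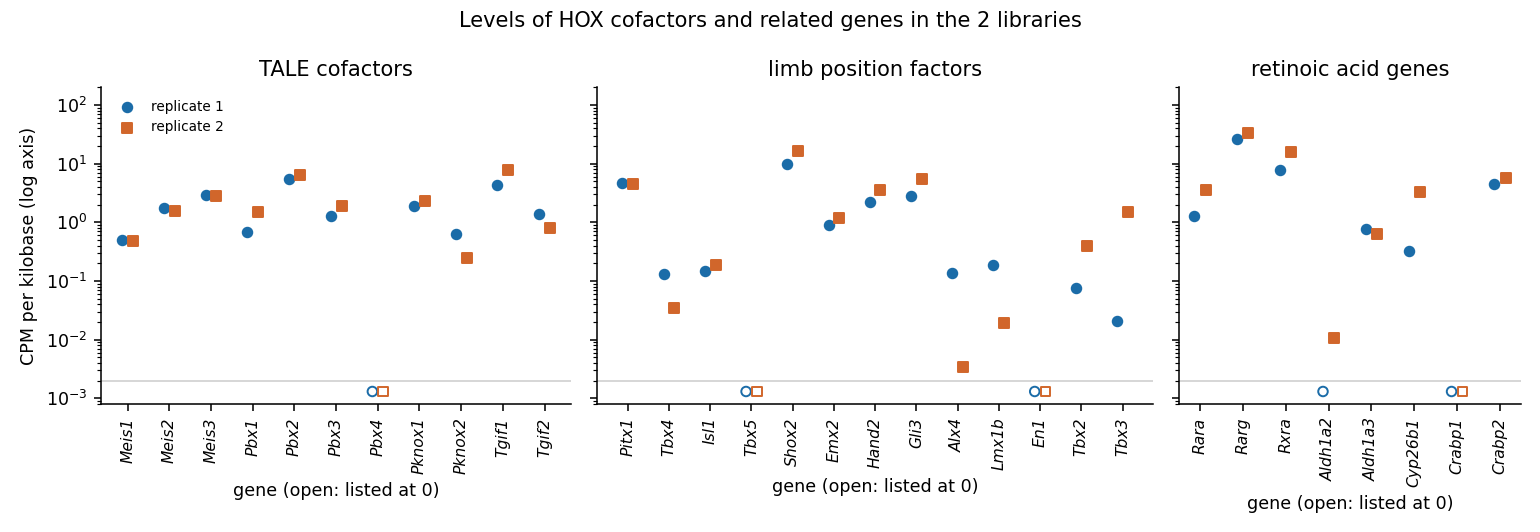
Level of TALE cofactors, limb position factors and retinoic acid genes as CPM per kilobase on a log axis, with circles for replicate 1 and squares for replicate 2. Open symbols under the grey line are genes listed at 0, among them *Pbx4*, *Tbx5*, *En1* and *Crabp1* in both libraries.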

How the data were processed

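RNA-sequencing was performed on 2 libraries of *Sox9*-GFP-high chondrospheres, from poly(A)-selected, stranded libraries with single-end reads of 50 bases. The authors aligned reads with STAR 2.7.3a to GRCm38 with GENCODE M25, assigned them to genes with the expectation-maximization method of Partek 10.0.21.0801, which can divide a read among genes, and deposited CPM values. Of the low values, 66.8% and 65.6% were whole multiples of 1 read, which was too few to turn CPM back into reads or to fit a count model. Members and gene lists were chosen with earlier results of these data known.

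From the CPM, the offset of 0.0001 was subtracted, and levels were divided by exonic length from GENCODE M21 on GRCm38, an earlier release than the authors'. Implied reads were called whole within 0.05 reads. Counting error is the square root of the summed inverse reads on the log2 scale. HOX members are named, except 1 that enters sums and counts but is not reported here singly, with the 3 highest genes by CPM of each list, genes of a list at 0, and genes within or beside the clusters. Cell type marker lists are given by their sums, with only some of their genes named. Alternatives covered scaling, length, pseudocount, filters, overlapping genes and leaving out a library. Trimmed means left out 30% of ratios and 5% of levels at each end. Computation was tested on simulated data. Scripts ran in Python 3.11.15 with pandas 2.3.3, numpy 2.4.6, matplotlib 3.10.9 and scipy 1.17.1.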

Additional observations from a re-analysis of the deposited data

How the results depend on the processing

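No result has a test, and a value is called moved where it left the spread between the libraries or, for a count, changed by over 1.5 times. In all, 219 values were recomputed for 48 results. Without division by length, the Hoxa cluster held 45.6% and the Hoxc cluster 33.5% of the HOX level, paralogue groups 1 to 3 held 5.51% and groups 4 to 8 held 35.7%, and the log2 ratio of group 10 to group 9 was 0.61. With the longest coding transcript as length, the Hoxa cluster held 41.6%, groups 1 to 3 held 5.41%, groups 4 to 8 held 40.2% and groups 9 to 13 held 54.4%, and that ratio was 0.95. The order of single genes was not recomputed with another length. Counting *Gm28230* and *Gm28308* with the members, chosen after seeing the data, gave 5.83% for groups 1 to 3. The median log2 ratio between the libraries, -0.01, has no settled sign. With the trimmed mean, and with totals without the 10 highest genes, it was 0.01, each again centred on the median of all genes. This centring cancels the scaling apart from its effect through the pseudocount and the 1 CPM limit. In CPM as deposited without centring, the median over the members was 0.29. Most Hoxa members were lower in replicate 2, but 6 of 10 were higher in CPM as deposited, where the median log2 ratio of all genes was 0.30. Members over 2-fold apart, after centring on the median of all genes, numbered 5 when totals excluded the 10 highest genes. With those totals 31 members reached a mean of 1 CPM, against 28 in CPM as deposited. The number was 1 with a pseudocount of 1 CPM and 0 with a mean of at least 10 CPM. Leaving out those 10 genes multiplies CPM by 1.75 and 1.53 and moved 30 member levels. Values with a library left out lie within 1 SD by arithmetic with n = 2. The cause of the other changes was not tested. Depth limits the members with the fewest reads, among them *Hoxb8*, *Hoxc12* and *Hoxd13*.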
